A study of Drosophila melanogaster with 23 samples.

Results

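The cytosolic ribosomal protein genes of Drosophila melanogaster were taken as every gene whose FlyBase symbol begins with RpL or RpS, the RpLP0, RpLP1 and RpLP2 genes included and the mRpL and mRpS genes of mitochondria left out. Of 17714 gene identifiers in the files, 92 met this rule, 54 of the large and 38 of the small subunit. The rule misses sta and Rack1, which encode small-subunit proteins under other names. RNA-seq counts were available for 23 libraries of adult midguts in 8 groups, from an ubiquitous expression model under the armadillo driver (armGal4) and an ISC-restricted model under the escargot driver (esgGal4), whose target is the intestinal stem cell (ISC). In each model tubGal80ts, a temperature-sensitive block of Gal4 that all groups carried, was combined with UAS-TdTomato, a fluorescent protein (WT), UAS-OKSM, the reprogramming factors Oct4, Klf4, Sox2 and c-Myc (OKSM), UAS-Sen, a senolytic peptide made to free p53 from FOXO (Sen), or both constructs (OKSM-Sen). Expression was constant, and neither the age of the flies at dissection nor whether libraries came from separate flies was clear in the sources, so the p-values reflect no more than the spread among the libraries at hand. Whether the constructs were expressed was not analysed here. Each group had 3 libraries except ubiquitous Sen, which had 2.

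A ribosome is built from rRNA and 1 copy of nearly every ribosomal protein, so cells need the many mRNAs of this family in similar amounts. Their transcripts are among the most abundant of growing cells, their translation is under the control of TOR signaling, and Myc raises the expression of the machinery that builds ribosomes. In the fly, loss of 1 gene copy of many members gives the Minute phenotype of slow growth and thin bristles. In the midgut, stem cells that divide make enteroblasts and then large, polyploid enterocytes, all of which need ribosomes.

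Libraries of the ubiquitous model held 33438269 to 46324866 counts and those of the ISC model 14626936 to 18974759, so depth and driver cannot be told apart between the models. The libraries labelled as intestinal stem cells were not restricted to that cell type. Summed over 8 enterocyte markers they held 14510 to 53620 CPM (counts scaled to a common library size by TMM), and the 7 stem cell and enteroblast markers that were found held 382 to 487 CPM, while the ubiquitous libraries held 40890 to 73770 and 413 to 476 CPM. They are described here as midguts with ISC-restricted expression, and esg and Dl were not analysed here. In these bulk samples, fewer cells of a type and less RNA per cell cannot be told apart. Of 10 testis markers 7 to 9 were at 0 in each ISC group and 5 to 8 in each ubiquitous group.

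The members took a large share of every library. In ISC WT libraries they held 11.7%, 12.01% and 8.70% of all counts. The 9 construct libraries of the ISC model held less than any of these, with 6.83% to 7.50% in OKSM, 7.41% to 7.86% in Sen and 7.16% to 7.45% in OKSM-Sen. WT replicate 3 stood apart from the other WT libraries and lay between them and the construct libraries. In the ubiquitous model the shares were 10.1% to 12.6% in WT, 8.20% to 9.08% in OKSM, 9.49% and 11.8% in Sen and 9.69% to 11.5% in OKSM-Sen, and OKSM was the only construct whose libraries did not overlap WT. The ratio of large-subunit to small-subunit TPM (a level corrected for gene length) was 1.86 to 1.94 in all ubiquitous libraries. In all ISC libraries it was 1.66 to 1.78. RpL41, the large-subunit gene with the highest TPM, also differed between the models, as described below, and its part in this ratio was not tested. Within the ISC model the ratio was 1.72 to 1.75 in WT and 1.76 to 1.78 in OKSM. It was 1.73 to 1.77 in Sen and 1.66 to 1.71 in OKSM-Sen.

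**Figure D1:**
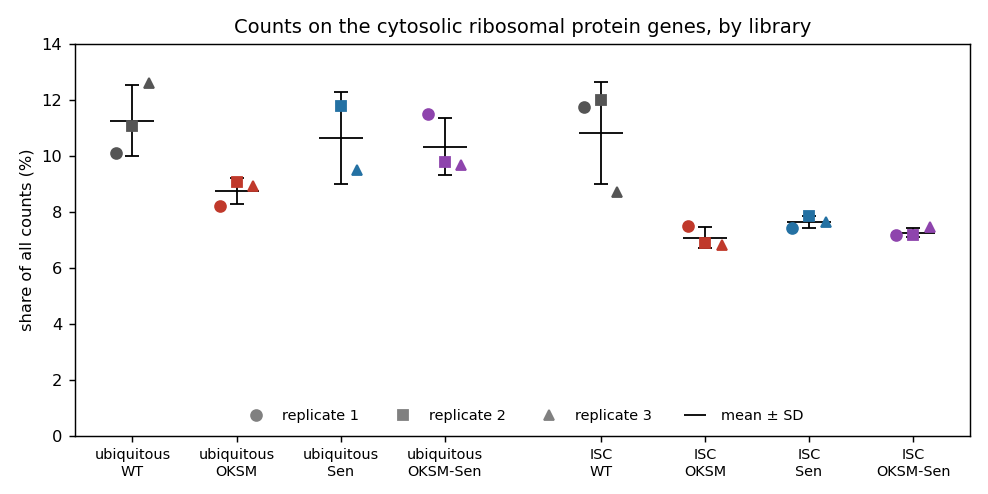
Share of all counts (%) that fell on the 92 ribosomal protein genes in each of 23 libraries, by model and construct, with points for libraries and bars for the mean ± SD. In the ISC model the 9 construct libraries sit between 6.83% and 7.86%, below the 3 WT libraries at 8.70% to 12.01%.

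Levels per length were compared in TPM, averaged over the 23 libraries. A core of 78 genes had mean levels between 928 and 19869 TPM, with quartiles at 1693 and 3141 and a median of 2233 TPM. RpL41, which encodes the smallest ribosomal protein, was highest at 19869 TPM, followed by RpL29 at 8140, RpL39 at 7877, RpS23 at 5301 and RpLP1 at 4662 TPM. The first 3 are the shortest members detected, with effective lengths of 79.0, 92.0 and 50.4 bases, and TPM divides by that length, so their rank depends on it. RpL41 also differed by model on this scale, with 29248 ± 2161 TPM in ubiquitous WT and 15961 ± 1297 TPM in ISC WT (SD, n = 3), a difference in which driver and depth cannot be told apart.

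Of the 92 genes, 7 did not reach the filter of 10 counts on average and were not tested. RpL22-like, RpL10Aa and RpS28a had 0 counts in all 23 libraries, a limit of 3 counts that corresponds to 0.0648 to 0.205 CPM depending on the library. RpS10a had 1 count over all libraries, RpS28-like 3, RpL37-2 5 and RpS19b 25. Several of these copies are known from the fly germline, among them RpL22-like, RpS10a and RpS19b. The other 85 genes, 51 of the large and 34 of the small subunit, were tested in both models.

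With ISC-restricted expression, nearly the whole family was lower in each of the construct groups than in WT. Under OKSM 81 of 85 tested members were lower, where 15% of all genes tested were called lower and 32.3% in either direction at a false discovery rate (FDR) of 10%. Under Sen 82 were lower, beside 18.3% of all genes lower and 36.5% in either direction. Under OKSM-Sen 83 were lower, beside 13.3% and 29% of all genes. No member was called higher by edgeR's quasi-likelihood test or by DESeq2, although 17.3%, 18.2% and 15.7% of all genes were. The median log2 fold changes of the members were -0.67, -0.58 and -0.68 in the same order, falls by 37.0%, 33.0% and 37.6%, while the medians of all 9374 genes tested were 0.01, -0.02 and 0.02. The 3 comparisons share the WT libraries and are therefore given side by side.

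Single libraries showed how far the fall was from the spread of WT. The 3 OKSM libraries lay below all WT libraries in 79 of 85 members, those of Sen in 81 and those of OKSM-Sen in 83, beside 18.8%, 23.1% and 18.8% of all genes tested. WT replicate 3 was the lowest WT library in 83 of 85 members, beside 36.8% of all genes, and its median distance from the mean of replicates 1 and 2 was -0.38 on the log2 scale. It was still above all 9 construct libraries in 77 members. With each of the 12 ISC libraries left out in turn, 73 to 82 members were called lower in OKSM, 73 to 83 in Sen and 81 to 84 in OKSM-Sen. With all libraries 15%, 18.3% and 13.3% of all genes were called lower, and the shares in the fits with a library left out are not given here. The rRNA, snoRNA and snRNA genes removed before the fit took 3.82% to 4.23% of counts in ISC WT and 4.498% to 7.64% in the construct libraries, all higher than WT, and their part in the fall was not tested.

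**Figure D2:**
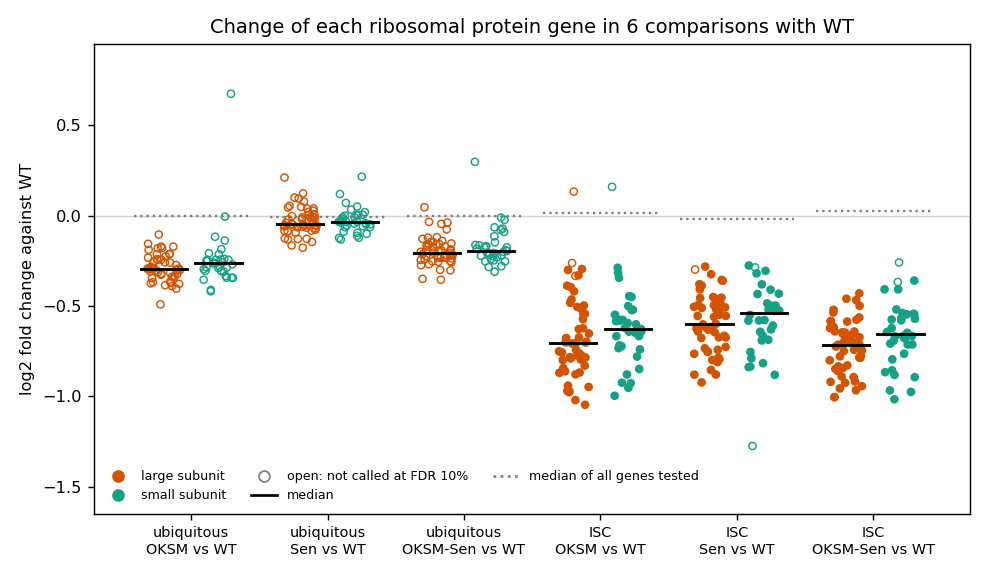
Log2 fold change against WT of each of the 85 tested ribosomal protein genes in 6 comparisons, large and small subunit apart. Filled points passed an FDR of 10%, solid bars are subunit medians and dotted lines the median of all genes tested. Points in the 3 ISC comparisons centre between -0.54 and -0.71 and most are filled, while all points of the ubiquitous model are open.

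RpL4, a protein that lines the exit tunnel of the large subunit (gene at 3R:27922821-27924888, BDGP6.54), was among the members that fell most. It stood at 2486, 2528 and 1770 CPM in the ISC WT libraries, at 1249, 1098 and 996 CPM in OKSM, at 1134, 1339 and 1214 CPM in Sen and at 1089, 1155 and 1139 CPM in OKSM-Sen. All construct libraries were below the lowest WT library. The log2 fold changes were -1.02 (SE 0.14, edgeR adjusted p = 0.0012), -0.88 (SE 0.14, adjusted p = 0.0015) and -1.004 (SE 0.14, adjusted p = 0.0014) for OKSM, Sen and OKSM-Sen. RpL18, another large-subunit protein (3L:7240203-7241351), averaged 1230 ± 211 CPM in WT, 595 ± 64.4 with OKSM, 668 ± 64.6 with Sen and 629.7 ± 44.1 with both (SD, n = 3 each), and fell by 1.05, 0.88 and 0.97 on the log2 scale.

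RpS6, the small-subunit protein that S6 kinase phosphorylates downstream of TOR (X:7899624-7901331), followed the same pattern. Its WT libraries held 1801, 1982 and 1449 CPM, its OKSM libraries 1028, 943 and 784, its Sen libraries 958, 1056 and 917, and its OKSM-Sen libraries 826, 921 and 913 CPM. No construct library reached the lowest WT library. The log2 fold changes were -0.93, -0.84 and -0.98 (SE 0.14 each, edgeR adjusted p = 0.0015, 0.0015 and 0.0013).

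Other members among those with the smallest adjusted p-values were RpL17, RpL27, RpL6, RpS12, RpS24 and RpS26 in OKSM, RpL17, RpL24-like, RpL37A, RpL5, RpS12, RpS14b and RpS2 in Sen, and RpL10Ab, RpL17, RpL36, RpL5, RpL9, RpS2 and RpS9 in OKSM-Sen, beside RpL4, RpL18 and RpS6, which came up in each. RpL5, which carries 5S rRNA into the large subunit, fell by 0.75, 0.75 and 0.96 on the log2 scale under OKSM, Sen and their combination. RpS2 fell by 0.85, 0.82 and 1.02, and RpL17, which sits near the exit tunnel, fell by 0.87, 0.79 and 0.93. Over all tested members the fold changes ran from -1.05 to 0.16 in OKSM, from -1.28 to -0.28 in Sen and from -1.02 to -0.26 in OKSM-Sen, and the extremes of -1.28 and 0.16 belonged to RpS5b, a rare copy described further on.

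Both subunits took part. In OKSM, 48 of 51 large-subunit and 33 of 34 small-subunit genes were called lower, with medians of -0.70 and -0.62. In Sen the counts were 50 of 51 and 32 of 34 with medians of -0.60 and -0.54, and in OKSM-Sen 51 of 51 and 32 of 34 with medians of -0.71 and -0.66. The difference between the subunits was not tested.

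The stalk proteins, which recruit elongation factors to the large subunit, did not all fall to the same extent. RpLP0, the base of the stalk, averaged 2443 ± 419 CPM in WT, 1441 ± 166 with OKSM, 1578 ± 120 with Sen and 1453 ± 35.3 with both (SD, n = 3 each), with log2 fold changes of -0.76, -0.63 and -0.75 (SE 0.13 each, edgeR adjusted p = 0.0035, 0.0061 and 0.0038). RpLP1 fell by 0.76, 0.62 and 0.79 on the same scale. RpLP2 held 1961, 2157 and 1648 CPM in WT and 1764, 1460 and 1584 CPM in OKSM, where the libraries overlapped WT. The change of -0.26 (SE 0.12) did not pass edgeR's test (edgeR adjusted p = 0.13), while DESeq2 called RpLP2 lower. In Sen, RpLP2 fell by 0.46 (adjusted p = 0.015) and in OKSM-Sen by 0.59 (adjusted p = 0.0065). The ubiquitin fusions, whose products supply ubiquitin along with a ribosomal protein, both fell. RpL40 fell by 0.71, 0.60 and 0.71, and RpS27A by 0.52, 0.50 and 0.67, in OKSM, Sen and OKSM-Sen.

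RpL38 was the clearest exception in OKSM. Its product is a small protein of the large subunit whose mouse counterpart is known for a role in the translation of Hox mRNAs, and the gene lies at 2R:4515388-4516458. It held 608, 723 and 676 CPM in WT and 763, 686 and 751 CPM in OKSM, with overlapping libraries and a log2 fold change of 0.13 (SE 0.09, edgeR adjusted p = 0.30). In Sen it held 540, 546 and 565 CPM and in OKSM-Sen 497, 443 and 458 CPM, below all WT libraries, with changes of -0.28 (SE 0.09, adjusted p = 0.035) and -0.52 (SE 0.09, adjusted p = 0.0029). RpL38 was also the least like the rest between libraries of a group. Its residuals, after each group mean was taken off, had a correlation of 0.01 with the mean of the other core members over 12 libraries.

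**Figure D3:**
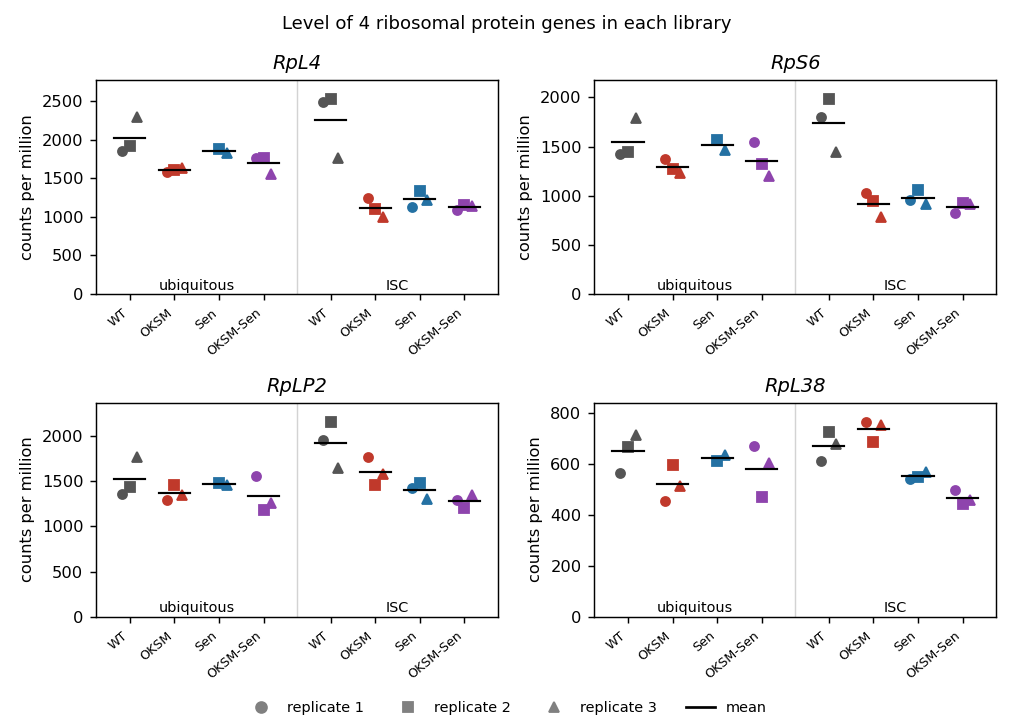
Level in CPM of RpL4, RpS6, RpLP2 and RpL38 in each library, with a bar for the mean of each group. RpL4 and RpS6 drop in all ISC construct groups, RpLP2 and RpL38 overlap WT in ISC OKSM, and the ubiquitous libraries lie closer together.

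Besides RpL38 and RpLP2, the members that edgeR did not call in ISC OKSM were RpLP0-like and RpS5b. In Sen RpLP0-like, RpS21 and RpS5b were not called by edgeR, and in OKSM-Sen RpS15Ab and RpS5b. DESeq2 called RpLP2 and RpLP0-like lower in OKSM and RpS21 lower in Sen, so these exceptions depended on the test. RpS21 changed by -0.29 in Sen (SE 0.13, edgeR adjusted p = 0.12) and fell by 0.45 in OKSM and 0.36 in OKSM-Sen.

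Among the 78 core members the longer transcripts had the larger falls in the ISC model. The Spearman correlation of effective length with log2 fold change across these genes was -0.49 for OKSM, -0.54 for Sen and -0.53 for the combination. In OKSM the median was -0.58 for the 26 shortest members, up to 344 bases, -0.70 for the middle 26 and -0.77 for the 26 longest, from 495 bases. The medians in the same order were -0.50, -0.59 and -0.68 in Sen and -0.63, -0.68 and -0.81 in OKSM-Sen. Over the 3072 other genes of the same length range the correlations were -0.06, -0.02 and -0.02, and among the members of the ubiquitous model they were between -0.10 and 0.00. Genes are not independent replicates, and these values are descriptions. Mean fragment length, which enters the effective length, was 241 to 245 bases in ISC WT and 243 to 250 bases in the ISC construct libraries, and its part in the relation was not tested.

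**Figure D4:**
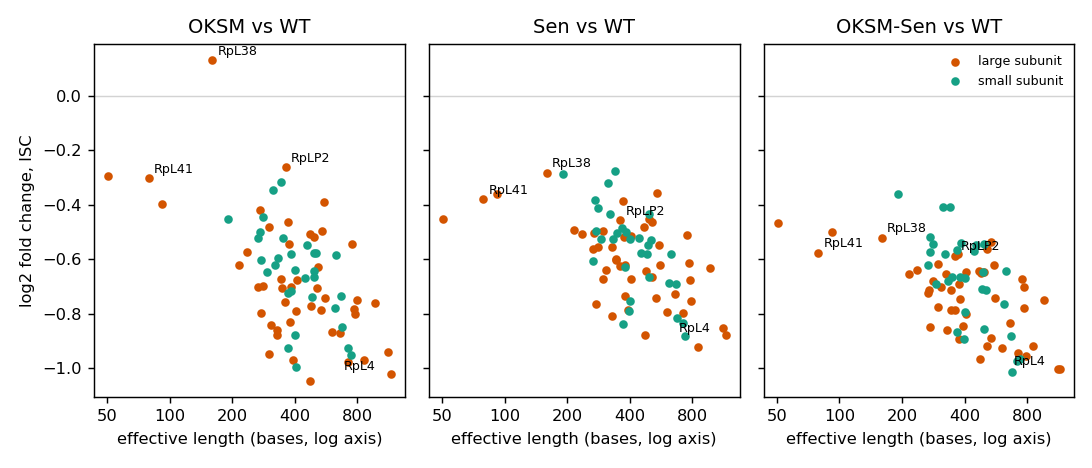
Log2 fold change against WT in the ISC model, by effective length in bases on a log axis, for 78 core ribosomal protein genes of the large and small subunit in 3 comparisons. Long members such as RpL4 lie low, with Spearman correlations of -0.49, -0.54 and -0.53.

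Whether the constructs add to each other was tested by the OKSM by Sen interaction, which is 0 where the effect of both equals the sum of the effects of each on the log2 scale. In the ISC model 58 of 85 members had a positive interaction and 1 a negative one, beside 10.6% and 11.4% of all genes tested. The median over the members was 0.54 and over all genes 0.03. OKSM-Sen thus lay near the level of either construct alone rather than at the sum of both falls. For RpL4 the interaction was 0.90 (SE 0.20, edgeR adjusted p = 0.018), for RpL18 0.96 (SE 0.19, adjusted p = 0.012) and for RpS6 0.79 (SE 0.19, adjusted p = 0.024). RpL38 was the member with the negative interaction, -0.37 (SE 0.12, adjusted p = 0.071). The WT libraries enter this contrast as well as those with each construct. Every construct effect is taken against the same WT group. A shift of that group therefore cannot be told apart from construct effects that do not add. Of both directions together, 59 members were called, and this total depended on single libraries. Removing WT replicate 1 left 30 calls, removing WT replicate 2 left 31, and removing OKSM-Sen replicate 3 left 32. Removing Sen replicate 1 left 35, and either OKSM replicate 3 or Sen replicate 3 left 39, and without WT replicate 3 the total was 75. Over these 12 fits 14.2% to 26.68% of all genes were called.

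The combination was also compared with each single construct. In the ISC model only RpL38 differed between OKSM-Sen and OKSM, falling by 0.65 (SE 0.09, edgeR adjusted p = 0.014), beside 0.672% of all genes called. No library of OKSM-Sen overlapped one of OKSM for this gene. Without OKSM-Sen replicate 3 this call was lost and 0 members passed, while DESeq2 called RpL38 and RpL36, beside 2.92% of all genes. Between OKSM-Sen and Sen edgeR called 0 members, beside 0.555% of all genes, with 2 lower at an unadjusted p under 0.05 beside 4.5% of all genes, and DESeq2 called RpL38 alone, beside 2.95%. The median difference over the members was -0.03 from OKSM, and it became 0.05 when OKSM replicate 1 was dropped, -0.12 when OKSM replicate 3 was, and 0.01 when the first OKSM-Sen library was. From Sen it was -0.12, and -0.08 without Sen replicate 2. The test across all 4 conditions called 82 of 85 members, beside 35.7% of all genes, and left out RpLP0-like, RpS15Ab and RpS5b.

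With ubiquitous expression most members were also below WT in OKSM and OKSM-Sen, but none passed edgeR's test in any comparison. OKSM against WT had 84 of 85 members below 0, with a median of -0.29, a median difference of 18.0%, and 37 lower at an unadjusted p under 0.05, beside 5.3% of all genes. At an FDR of 10%, 1.09% of all genes were called in either direction. DESeq2 called 20 members lower, beside 4.43% of all genes. OKSM-Sen against WT had a median of -0.20 with 10 lower at an unadjusted p under 0.05 beside 4.52% of all genes, where 1.16% of all genes were called at an FDR of 10%, and DESeq2 called 2 members, beside 3.54% of all genes. Its median was -0.10 without WT replicate 3 and -0.29 without OKSM-Sen replicate 1. That library lay 0.01 above the WT mean in the median over the members, and OKSM-Sen replicates 2 and 3 lay at -0.27 and -0.31. Sen against WT had a median of -0.04, which was 0.06 without WT replicate 3 and 0.02 without Sen replicate 3. It had 0 members at an unadjusted p under 0.05, beside 14.26% of all genes, and 0 by DESeq2, beside 6.57%, where edgeR called 2.48% at an FDR of 10%. The 3 comparisons share their WT libraries. Across the 4 conditions edgeR called 0 members, beside 2.61% of all genes, with 10 at an unadjusted p under 0.05 beside 14.37%, and DESeq2 called 19, beside 11.28%.

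RpL17 had the smallest adjusted p of the ubiquitous model. It held 1105, 1110 and 1329 CPM in WT and 837, 840 and 843 CPM in OKSM, without overlap, for a log2 fold change of -0.49 (SE 0.11, edgeR adjusted p = 0.12). In 65 of 85 members the 3 OKSM libraries lay below all WT libraries, beside 7.39% of all genes tested, against 13 members for OKSM-Sen and 5 for Sen, beside 6.87% and 15.5%. Ubiquitous WT replicate 3 was the highest WT library, with a median of 0.17 above the WT mean on the log2 scale. The 8 enterocyte markers summed to 43020 to 47890 CPM in ubiquitous WT, 57220 to 70290 in OKSM, 49700 to 73770 in Sen and 40890 to 49430 in OKSM-Sen. The sums lay above WT in OKSM and in Sen, where the members' medians were -0.29 and -0.04. Such a sum follows the most abundant markers. Gene by gene, betaTry was called higher in OKSM, and betaTry and LManIII in Sen. The part of these markers in the OKSM difference was not tested. Between OKSM-Sen and OKSM edgeR called 0 members, beside 0.301% of all genes, with 1 at an unadjusted p under 0.05 beside 6.64%. Between OKSM-Sen and Sen and for the interaction it called 0, beside 1.8% and 1.06%, with 0 at an unadjusted p under 0.05 beside 13.39% and 12.23%, and DESeq2 called 0 in these 3 comparisons.

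The effect of each construct was compared between the models in a single fit, as the change in the ISC model minus the change in the ubiquitous model. For Sen, 70 of 85 members fell more in the ISC model, beside 13.1% of all genes called lower, with a median difference of -0.57. Without ubiquitous Sen replicate 2 the count was 31, beside 17.26% of all genes called in either direction, a fit with a single library in that group, which is assumed to vary like the other groups. Without ISC WT replicate 2 the count was 46, beside 21.11%. Scaled by library totals it was 17, beside 26.99%, with a median difference of -0.36 where that of all genes was 0.17. RpL37-1, RpL22, RpL6, RpL18 and RpS4 had the smallest adjusted p-values, with differences between -0.79 and -0.88. RpL22 shows the pattern, with 1418, 1476 and 1013 CPM in ISC WT and 662, 770 and 628 CPM in ISC Sen, and with 1186, 1199 and 1379 CPM in ubiquitous WT and 1240 and 1168 CPM in ubiquitous Sen. The first pair of groups did not overlap and the second did.

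For OKSM 9 members differed, all lower in the ISC model, beside 2.4% of all genes called lower, with a median difference of -0.43, and for OKSM-Sen 11 were lower, beside 0.833%, with a median of -0.53. Both counts hang on single libraries. For OKSM, 50 members were called without ISC WT replicate 3 and 24 without ubiquitous WT replicate 3, but 0 without ISC WT replicate 1 or 2, ISC OKSM replicate 3, ubiquitous WT replicate 2 or ubiquitous OKSM replicate 1. Leaving out ISC OKSM replicate 1 or 2, ISC Sen replicate 2 or 3, ISC OKSM-Sen replicate 3, ubiquitous WT replicate 1, ubiquitous OKSM replicate 2 or ubiquitous OKSM-Sen replicate 2 gave 1 to 5. For OKSM-Sen, 65 were called without ISC WT replicate 3, 37 without ubiquitous WT replicate 3 and 18 without ubiquitous OKSM-Sen replicate 3, but 0 without ISC WT replicate 1 or 2, ISC OKSM-Sen replicate 1, ubiquitous WT replicate 2 or ubiquitous OKSM-Sen replicate 1. It was 1 without ubiquitous WT replicate 1 or ISC OKSM-Sen replicate 3, 3 without ubiquitous OKSM-Sen replicate 2 and 7 without ISC Sen replicate 3. The share of all genes called in either direction moved as well. For OKSM it was 9.34% without ISC WT replicate 3, 4.81% without ubiquitous WT replicate 3 and 0.75% to 1.35% in the fits with 0 members. For OKSM-Sen the same shares were 6.21%, 2.71% and 0.27% to 0.41%. DESeq2 called 31 and 48 members, beside 8.99% and 6.13% of all genes. Over these fits the median differences ran from -0.54 to -0.34 for OKSM and from -0.64 to -0.43 for OKSM-Sen. The models differ in driver, depth and possibly in batch, which cannot be told apart.

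Members whose symbols are alike up to a copy letter, a copy number or the ending -like, called copies here, were compared within 13 sets that hold 27 members. In every set 1 copy carried most of the transcripts of the set, measured in TPM. RpL10Ab, RpL22, RpL37-1, RpS10b, RpS19a, RpS28b and RpS5a made up at least 99.6% of their sets in all 23 libraries. RpS5b, a copy known from the female germline, held 0.021% to 0.352% of its set and 0.318 to 4.89 CPM in the ISC libraries. It is the member with the widest errors, with a log2 fold change of -1.28 (SE 0.87, edgeR adjusted p = 0.30) in ISC Sen, where WT replicate 1 alone held 4.89 CPM and the other WT libraries 0.318 and 0.49. The summed level of 16 markers of ovary and female germline was 3.25 to 50.4 CPM in ISC WT and 7.39 to 76.4 CPM in the ISC construct libraries, and its part in the level of RpS5b was not tested.

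The second copy was better expressed in 6 sets. RpS14b, a tandem neighbour of RpS14a on the X chromosome, made up 22.2% to 28.7% of its set, RpL34a 12.6% to 18.1%, RpL24-like 8.43% to 12.9%, RpL7-like 3.19% to 5.57%, RpLP0-like 2.22% to 4.25% and RpS15Ab 1.21% to 1.69%. The yeast counterparts of RpL24-like, RpL7-like and RpLP0-like are assembly factors of the large subunit rather than parts of the mature ribosome. Their place in these sets and among the large-subunit members follows from the symbol alone. How reads that fit both copies were split was left to the authors' counting, so the shares of near-identical copies are uncertain.

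Under ISC-restricted expression the share of some copies lay outside the range of WT. With so few libraries per group, none of the 36 tests of a share could give a p below 0.1. An adjusted p under the FDR used here was therefore out of reach whatever the data, and these tests cannot decide whether a share differed. RpL34a took 13.3%, 13.5% and 15.2% of its set in WT, 16.1% to 18.1% in OKSM, 16.4% to 16.7% in Sen and 15.9% to 17.1% in OKSM-Sen, above WT in all construct libraries. On the level of single genes RpL34a fell by 0.33, 0.32 and 0.43 and RpL34b by 0.70, 0.62 and 0.75 on the log2 scale. RpS15Ab also took a larger part, 1.24% to 1.33% in WT and 1.44% to 1.69% in the constructs. RpL24-like took a smaller part, 12.2% to 12.9% in WT and 8.43% to 11.98% in the constructs, and fell by 0.77, 0.75 and 0.83, against 85 members with medians of -0.67, -0.58 and -0.68. RpS14b overlapped WT in OKSM and OKSM-Sen, and in Sen it took 25.4% to 26.3%, below the 26.5% to 28.3% of WT. Of all 18 such comparisons in this model, the construct libraries lay above WT in 9, below in 4 and overlapped in 5. These comparisons reuse the same 3 WT libraries. By level rather than share, construct libraries lay above all WT libraries in 21.2% to 22.6% of all genes tested and below in 18.8% to 23.1%. For RpL34a, RpS15Ab and RpL24-like an exact permutation test of 3 against 3 libraries gave a two-sided p of 0.1 in all constructs, the smallest it can give, and 0.28 after adjustment over 36 such tests. In the ubiquitous model the libraries of WT and construct overlapped in 17 of 18 such comparisons. By level, 6.81% to 12.6% of all genes tested there lay above all WT libraries and 6.87% to 15.5% below.

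**Figure D5:**
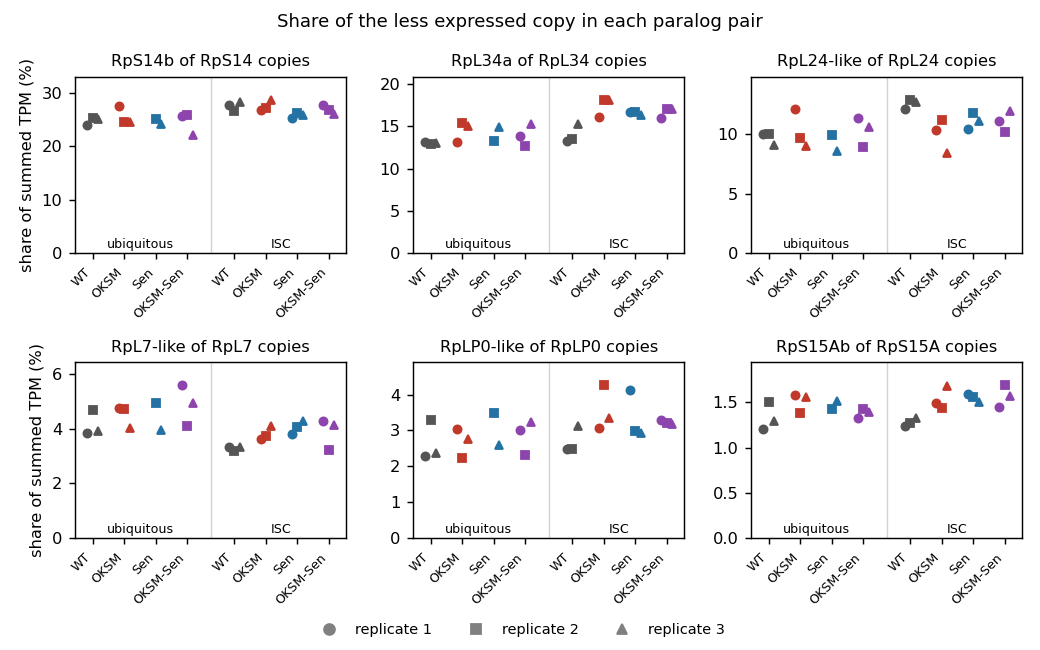
Share of the summed TPM of a paralog set (%) that the less expressed copy took in each library, for 6 sets. RpL34a and RpS15Ab lie higher and RpL24-like lower in the ISC construct libraries than in ISC WT, and RpS14b keeps to 22.2% to 28.7% in all 23 libraries.

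Within groups the members moved together. After group means were taken off, the median correlation between pairs of core members was 0.85 over the 11 ubiquitous and 0.89 over the 12 ISC libraries, beside 0.00 for pairs of all genes tested. It was 0.88 within the large and 0.91 within the small subunit of the ISC model. A high or low library was thus high or low for nearly the whole family, and the tests of its members are not independent of each other. Next to RpL38, the ISC members that followed the rest least were RpS5b with 0.18, RpLP0-like with 0.21, RpL41 with 0.30 and RpL24 with 0.51.

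The small-subunit proteins that the rule misses behaved like the members. Under OKSM, Sen and OKSM-Sen in that order, sta, the fly RpSA, fell by 1.06, 0.97 and 1.04 and Rack1, a scaffold on the small subunit, by 0.92, 0.86 and 0.95 on the log2 scale in the ISC model. Rack1 held 2115, 2228 and 1591 CPM in WT and 928 to 1180 CPM in the construct libraries. This gene is also on the list of translation initiation and elongation genes below, and counts there among those called lower in each ISC construct group.

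Of 37 tested genes for translation initiation and elongation, 26 were lower and 0 higher in ISC OKSM, 18 lower and 1 higher in Sen and 24 lower and 1 higher in OKSM-Sen, with medians of -0.35, -0.24 and -0.32, beside 15%, 18.3% and 13.3% of all genes called lower. eIF3h and eIF3m, subunits of the factor that prepares the small subunit for initiation, fell by 0.75 and 0.86 under OKSM, by 0.57 and 0.67 under Sen and by 0.65 and 0.68 under both. eIF4A, the helicase of initiation, fell by 0.74 in OKSM-Sen. The gene that rose in Sen and OKSM-Sen was eIF5, by 0.26 and 0.28, named after its values were seen.

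Of 37 tested genes for ribosome biogenesis and RNA polymerase I, 22, 18 and 25 were lower in ISC OKSM, Sen and OKSM-Sen, and 2 rose in each, with medians of -0.48, -0.31 and -0.50, beside the same 15%, 18.3% and 13.3% of all genes called lower. Non1, a nucleolar GTPase of large-subunit assembly, fell by 1.11, 0.89 and 1.02, Ns1, a nucleostemin, by 0.48, 0.47 and 0.58, and Nopp140, a nucleolar phosphoprotein, by 0.76 in OKSM. The genes that rose were Rrp1, by 1.12, 0.96 and 0.82, and nst, by 0.40, 0.68 and 0.41. Rrp1 is known as an endonuclease of DNA repair and nst as an enzyme of amino sugar metabolism, so neither is an assembly factor, and both were named after their values were seen.

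Of 21 tested genes for TOR and Myc control, 8 were lower and 0 higher in ISC OKSM, 10 lower and 3 higher in Sen and 7 lower and 1 higher in OKSM-Sen, beside 32.3%, 36.5% and 29% of all genes called in either direction. Myc, the transcription factor that drives growth, held 307, 293 and 236 CPM in WT, 124 to 154 in OKSM, 172 to 199 in Sen and 153 to 187 in OKSM-Sen, and fell by 1.01, 0.61 and 0.71. S6k, the kinase of RpS6, fell by 0.89, 0.77 and 0.60, and foxo, which encodes the transcription factor that TOR and insulin signaling restrain, by 1.02, 0.97 and 0.86. The genes that rose were InR (0.69), Xrp1 (0.43) and Akt (0.30) in Sen and Xrp1 (0.38) in OKSM-Sen, all named after their values were seen. Xrp1 is known from the response of fly cells to lost ribosomal protein genes. The fly Myc gene is not the human c-Myc of the OKSM construct, and how construct reads were counted was not given in the sources used here.

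The 72 mitochondrial ribosomal protein genes, which encode the separate ribosomes of that organelle, gave few calls. In the ISC model 8 were lower and 3 higher in OKSM, 4 lower and 3 higher in Sen and 7 lower and 0 higher in OKSM-Sen, with medians of -0.06, -0.03 and -0.07, beside 32.3%, 36.5% and 29% of all genes called in either direction. In the ubiquitous model 0 of the 72 were called in the 3 comparisons with WT, beside 1.09%, 2.48% and 1.16% of all genes. There the other translation lists gave a single call with OKSM, eIF3c, which fell by 0.39, and a single call with Sen, InR, which fell by 1.18.

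Markers of other cell types were measured beside these falls. Within the ISC model the 8 enterocyte markers summed to 40140 to 53620 CPM in WT, 14510 to 42520 in OKSM, 24260 to 33680 in Sen and 20560 to 30210 in OKSM-Sen. Gene by gene few of them were called. The trypsin gene alphaTry fell by 1.57, 1.33 and 1.55 in the 3 construct groups, Jon65Aiv fell by 1.65 in OKSM-Sen, nub rose by 0.30 in Sen and Amy-p by 1.01 in OKSM-Sen, and the median log2 fold changes of the 8 were 0.02, 0.12 and 0.02. Of the 7 stem cell and enteroblast markers 4 were higher and 1 lower in OKSM, 6 and 1 in Sen, and 4 and 1 in OKSM-Sen. Sox21a, a transcription factor of stem cells and enteroblasts, rose by 0.94, 1.55 and 1.14, and Sox100B by 1.13, 1.49 and 1.31. The marker called lower in each construct group was cnc, which fell by 0.41, 0.43 and 0.30. All 7 markers summed to 414.2 to 486.5 CPM in WT and 382.0 to 434.1 CPM in the construct libraries. Such a sum follows the most abundant markers and is no measure of the number of stem cells. Of 9 enteroendocrine markers 3, 1 and 3 were higher and 0, 2 and 1 lower, in the same order. Of 5 tested hemocyte markers 1, 0 and 0 were higher and 1, 3 and 3 lower, with srp, a transcription factor of blood cells, falling by 1.29, 1.09 and 0.65. All 6 summed to 134.4 to 149.1 CPM in WT and 124.4 to 160.0 CPM in the construct libraries. The 10 markers of visceral muscle summed to 1781 to 1971 CPM in WT, 2319 to 3965 in OKSM, 2655 to 2887 in Sen and 1993 to 2460 in OKSM-Sen, above WT in all construct libraries, and 5, 4 and 2 of them were called higher and 0, 0 and 1 lower. None of these markers was at 0. The part of the cell makeup in the lower level of the ribosomal protein genes was not tested.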

How the data were processed

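Midgut RNA-seq was aligned by the authors to BDGP6.22 (Ensembl 97) with STAR 2.7.1a and quantified with RSEM 1.3.1. The deposited files hold expected counts, TPM and effective lengths per gene and library. Expected counts were rounded, 390 rRNA, snoRNA and snRNA genes (2.88% to 7.64% of counts) were removed, and genes with under 10 counts on average in a model were left out. Symbols and coordinates came from the BDGP6.54 annotation and matched 17587 of 17714 identifiers. Groups follow the labels. Each model was fitted by itself with edgeR 4.0.16 (R 4.3.3) in a quasi-likelihood model over 4 conditions with TMM factors, and differences between the models in 1 fit over 23 libraries. P-values were adjusted by Benjamini-Hochberg over all genes, with an FDR of 10%. This replaced the DESeq2 likelihood ratio and Wald tests of the study, and DESeq2 1.42.0 was an alternative. Levels are CPM scaled by TMM within a model, or TPM between genes. Methods were tested on simulated data. The members and lists were chosen with earlier results of these data known. Named genes are, for each construct and model, the 10 members with the smallest adjusted p under 10%, every paralog copy, the stalk proteins, RpS6, the ubiquitin fusions, the 5 highest and 5 lowest by TPM, and, between models, the 5 smallest adjusted p-values. Up to 4 genes were named per other list and comparison. A member that this rule names is not reported here. Novadr, Tor, Larp1, esg, Dl and nos were not analysed here. Counting intervals and floors cover counting error only. Protein and promoter sequences were not used here. No pair of libraries of the same group was alike within counting noise, and pairs from different groups were not compared in this way. Alternatives were other size factors, TMM without the members, library totals, no filter, DESeq2, a replicate block, 1 fit over all libraries and each library left out.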

Additional observations from a re-analysis of the deposited data

Results flagged for a closer look

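The effect of a construct differed between the 2 models for part of the family, by a test of the difference itself (ISC change minus ubiquitous change, edgeR, FDR of 10%). The OKSM effect differed for 9 members, beside 2.4% of all genes called lower, and was lower in the ISC model for RpL4 (-0.71), RpS24 (-0.68), RpL6 (-0.67), RpS6 (-0.70) and RpL18 (-0.69) on the log2 scale. The Sen effect differed for 70 members, beside 13.1%, with RpL37-1 at -0.86, RpL22 at -0.88, RpL6 at -0.79, RpL18 at -0.83 and RpS4 at -0.85. The OKSM-Sen effect differed for 11 members, beside 0.833%, with RpL10Ab at -0.72, RpL5 at -0.77, RpS2 at -0.79, RpL4 at -0.76 and RpL3 at -0.80. With each library left out in turn these counts ran from 0 to 50, from 31 to 77 and from 0 to 65, and DESeq2 gave 31, 73 and 48, beside 8.99%, 29.68% and 6.13% of all genes. Driver, depth and any batch of the models cannot be told apart. Groups of 3 libraries were too small for a test of single libraries that stand apart from a group, so ISC WT replicate 3 was only described.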

How the results depend on the processing

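Of 218 calls of named members, 4238 of 4702 values under an alternative kept direction and call, 464 kept the direction without the call, and 0 changed direction. Of 309 alternative medians of the members, 303 moved by less than the spread between libraries. Scaling by library totals moved the median of all genes by -0.09 to 0.24 and gave members' medians of 0.25 for ubiquitous OKSM-Sen against OKSM, -0.026 against Sen, 0.34 for the ubiquitous interaction, -0.52 for ISC OKSM-Sen against WT, and -0.22 and -0.36 for the OKSM and Sen effects between models. It called 1 member in ubiquitous OKSM, beside 0.99% of all genes. Between models it called 1, 17 and 5 members for OKSM, Sen and OKSM-Sen, beside 11.77%, 26.99% and 2.32% of all genes. DESeq2 called 20 members in ubiquitous OKSM, 2 in OKSM-Sen and 19 over 4 conditions, 2 and 1 for ISC OKSM-Sen against OKSM and Sen, and 31 and 48 between models for OKSM and OKSM-Sen. A fit over 23 libraries called 1 in ubiquitous OKSM and 1 over 4 conditions. Without a filter the OKSM and OKSM-Sen differences called 2 and 7. For the fit over 23 libraries and the fit without a filter, shares of all genes called are not given here.

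Whether replicate numbers pair the libraries could not be settled, since the residuals of each small group add up to 0. Same-numbered residuals correlated between -0.33 and 0.25 in the ISC model, with a median of -0.01, beside -0.03 for other pairs. In the ubiquitous model they correlated between -0.37 and 0.47, with a median of 0.09, beside -0.04 for other pairs. With the replicate block, 80, 81 and 83 members were called in ISC OKSM, Sen and OKSM-Sen against WT. In the same model 56 were called for the interaction and 81 over 4 conditions. OKSM-Sen there gave 1 call against OKSM and 0 against Sen. Each ubiquitous comparison gave 0, and the differences between models gave 5, 60 and 8. Shares of all genes with the block are not given here, so these counts do not show how far the members stand out.

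With each library left out in turn, the ISC interaction called 30 to 75 members, OKSM-Sen against OKSM 0 to 1, and the differences between models 0 to 50 for OKSM, 31 to 77 for Sen and 0 to 65 for OKSM-Sen. The ISC comparisons with WT called 73 to 84 members, where the fits with all libraries called 29% to 36.5% of all genes. The ubiquitous comparisons with WT called 0 members in each fit that kept all Sen libraries. With all libraries they called 1.09%, 2.48% and 1.16% of all genes for OKSM, Sen and OKSM-Sen.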
